A study of Mus musculus with 6 samples.

Results

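The hematopoietic stem and progenitor transcription factors are 10 genes, Spi1, Cebpa, Cebpe, Gfi1, Runx1, Ikzf1, Myb, Gata2, Tal1 and Lmo2, out of 33971 genes in a table of articular cartilage from young and aged mice. They were taken by gene symbol, each symbol matched 1 row, and each row has a read count and an FPKM value (fragments scaled by transcript length and by library size) for all 6 libraries. All 10 passed edgeR's filter on low counts.

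Blood cells of every lineage descend from hematopoietic stem cells, which in adult mammals reside mainly in the bone marrow, and the choice between lineages is set by a small group of DNA-binding proteins. Tal1, Lmo2, Gata2 and Runx1 act in stem cells and early progenitors, Myb keeps progenitors dividing, Spi1, Cebpa, Gfi1 and Cebpe direct progenitors toward monocytes and granulocytes, and Ikzf1 is needed for lymphocytes. Healthy articular cartilage has no blood vessels and its resident cell is the chondrocyte, so transcripts of most of these genes are not typical of the tissue, although Runx1 is also used by skeletal cells.

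The study compared articular cartilage of wild-type (WT) mice at 2 months, 3 libraries, with that of WT mice at 18 months, also 3 libraries, and the labels name no treatment. The study's methods describe male mice. Poly(A) RNA was made into strand-specific libraries, and the submitters' processing notes name UMI-tools, which handles molecular identifiers. The labels do not state whether a library came from 1 animal or several, so p-values measure only the spread between these libraries, which may be technical.

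The libraries held 48171507 to 59085179 counts. 2-month replicate 2 stood apart from replicates 1 and 3 of its age, with 391.6 CPM (counts scaled to a common library total) from 3 pan-leukocyte genes (Ptprc, Laptm5 and Coro1a) against 14.5 in the lowest 2-month library and 1768 to 1964 in the 18-month libraries. The 18-month libraries went against their tissue label, because 8 of 8 chondrocyte markers were called lower and their summed level was 235.7 to 856.1 CPM, against 32382 to 51881 at 2 months. Matn1, a cartilage matrix gene, was listed at 0 in 18-month replicate 3. Xist, which is expressed from the inactive X chromosome of female cells, had 88239, 102417 and 101615 counts at 2 months and 11, 27 and 30 at 18 months, so age and the sex pattern of the libraries cannot be told apart. Counts of genes called that turn on 2-month replicate 2 are given below with and without it.

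All 10 transcription factors had a higher FPKM in every 18-month library than in every 2-month library, a pattern shared by 35.6% of the 20397 genes tested. Their summed FPKM was 5.64, 72.9 and 8.26 in 2-month replicates 1, 2 and 3, and 354.7, 336.2 and 331.6 in 18-month replicates 1, 2 and 3. The sum in 2-month replicate 2 was above the other young libraries and below all aged libraries. In bulk tissue, fewer cells of a type and less RNA per cell cannot be told apart, and this holds for every level given here.

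**Figure D1:**
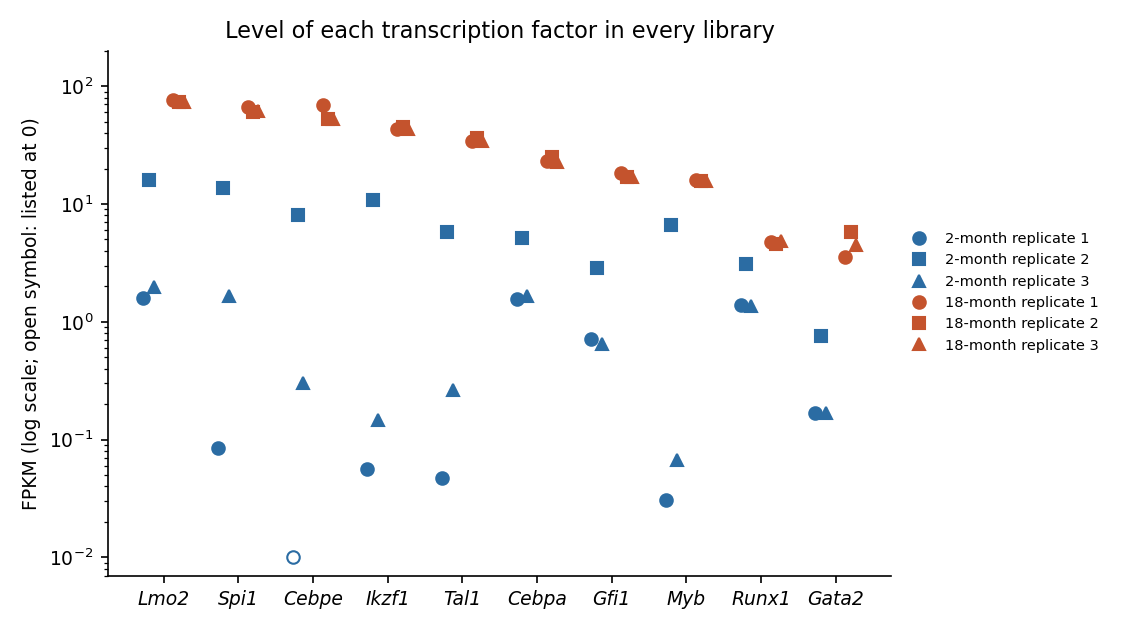
FPKM of the 10 transcription factors on a log axis, with 1 point per library, for 2-month (n = 3) and 18-month (n = 3) cartilage. For all 10 genes the aged libraries lie above the young ones, and 2-month replicate 2 is the highest young library, and the open symbol marks the Cebpe value of 0 in 2-month replicate 1.

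Among the myeloid factors, Spi1 (ENSMUSG00000002111, chr2:91082390-91114366, plus strand), which encodes the ETS-family protein PU.1 of monocytes, granulocytes and B cells, had 13, 2157 and 250 counts at 2 months and 11989, 10269 and 10686 at 18 months. These correspond to FPKM values of 0.0850, 13.7 and 1.64 in young cartilage and 66.2, 60.6 and 62.2 in aged cartilage. The young libraries spanned more than the aged ones, and the ages did not overlap. The log2 fold change of 18-month against 2-month cartilage was 3.61 ± 1.5 (SE), and it did not pass the quasi-likelihood test of edgeR after Benjamini-Hochberg adjustment (adjusted p = 0.0902). All adjusted p-values that follow are from that test over 20397 genes, and a gene was called at an adjusted p below 0.05 with a log2 fold change above 1 or below -1, the limits of the study.

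Cebpa (ENSMUSG00000034957, chr7:35119293-35121928, plus strand, GRCm38), a leucine-zipper protein that granulocyte and monocyte progenitors require, had an FPKM of 1.55, 5.15 and 1.65 at 2 months and 23.0, 25.1 and 22.8 at 18 months. Replicate 2 was the highest young library and lay below all aged ones. Cebpa rose by 3.04 ± 0.49 (SE) on the log2 scale, with an edgeR adjusted p of 0.00465.

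Cebpe (ENSMUSG00000052435, chr14:54710360-54712174, minus strand), which acts late in granulocyte maturation and is needed for secondary granules, had 0, 584 and 22 counts at 2 months and 5748, 4086 and 4190 at 18 months. On the FPKM scale the 18-month values were 68.9, 52.4 and 53.0, and 2-month replicates 2 and 3 had 8.04 and 0.303. The count of 0 in 2-month replicate 1 allows a level of up to 3 counts, or 0.0621 CPM, by counting error alone. Cebpe had the largest fitted log2 fold change of the 10 genes (4.38 ± 1.80, SE), with an edgeR adjusted p of 0.0869.

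Gfi1 (ENSMUSG00000029275, chr5:107716657-107726036, minus strand), a zinc-finger repressor of granulocyte progenitors and stem cells, had an FPKM of 0.718, 2.85 and 0.655 in young cartilage. Its 18-month FPKM was 18.5, 17.0 and 17.0, so the ages did not overlap. Gfi1 rose by 3.60 ± 0.61 (SE) on the log2 scale, with an edgeR adjusted p of 0.00558, so that of the 4 myeloid factors Cebpa and Gfi1 passed the test and Spi1 and Cebpe did not.

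Runx1 (ENSMUSG00000022952, chr16:92601466-92826149, minus strand), the DNA-binding subunit of core-binding factor and required for the first blood stem cells of the embryo, was the member closest between the ages. Its counts were 924, 2169 and 926 at 2 months and 3834, 3438 and 3700 at 18 months, and its FPKM was 1.39, 3.08 and 1.37 against 4.74, 4.54 and 4.82. Runx1 had the smallest log2 fold change of the 10 (1.22 ± 0.30, SE) and rose with an edgeR adjusted p of 0.0198.

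Ikzf1 (ENSMUSG00000018654, chr11:11685003-11772926, plus strand) encodes Ikaros, a zinc-finger protein of lymphoid development that is also expressed in stem and myeloid cells. It had 18, 3670 and 48 counts at 2 months and 16934, 16235 and 15844 at 18 months, with an FPKM of 0.0565, 10.8 and 0.148 and of 43.6, 44.7 and 43.0. The 2-month replicates 1 and 3 were near the floor, whereas replicate 2 was at 24.8% of the 18-month mean. The log2 fold change of 3.58 ± 1.86 (SE) had an edgeR adjusted p of 0.153.

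Myb (ENSMUSG00000019982, chr10:21124935-21160984, minus strand), which encodes the c-Myb protein of dividing progenitors, showed the same division among the young libraries. Its counts of 16, 3465 and 35 at 2 months and 9667, 8878 and 8951 at 18 months gave FPKM values of 0.0304, 6.62 and 0.0671 and of 16.1, 15.8 and 15.7. Its level in 2-month replicate 2 was 41.7% of the 18-month mean, the highest of the genes that were not called. Myb had the largest adjusted p of the 10 (log2 fold change 2.83 ± 1.84, SE, edgeR adjusted p = 0.238).

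Gata2 (ENSMUSG00000015053, chr6:88193891-88207032, plus strand), a zinc-finger protein of stem cells, mast cells and endothelium, had the lowest 18-month level of the group. Its FPKM was 0.167, 0.754 and 0.169 at 2 months, from 52, 240 and 53 counts, and 3.56, 5.76 and 4.50 at 18 months, from 1295, 1958 and 1548 counts. Gata2 rose by 3.61 ± 0.66 (SE) on the log2 scale, with an edgeR adjusted p of 0.00709.

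Tal1 (ENSMUSG00000028717, chr4:115056426-115071755, plus strand), a basic helix-loop-helix protein of stem, erythroid and megakaryocyte cells, had 12, 1499 and 65 counts at 2 months and 10041, 10056 and 9638 at 18 months. Its FPKM was 0.0469, 5.84 and 0.263 in young and 34.1, 36.5 and 34.5 in aged cartilage. The ages were far apart and the young libraries again divided, and the log2 fold change of 4.10 ± 1.62 (SE) had an edgeR adjusted p of 0.0790.

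Lmo2 (ENSMUSG00000032698, chr2:103957986-103981878, plus strand), a LIM-domain protein that does not bind DNA itself and bridges Tal1 to GATA proteins through Ldb1, was the most abundant of the 10 in aged cartilage. It had an FPKM of 1.59, 16.1 and 1.99 at 2 months and 76.0, 73.9 and 74.0 at 18 months, from 191, 2040 and 244 and from 11069, 10065 and 10228 counts. Lmo2 rose by 3.49 ± 0.95 (SE) on the log2 scale, with an edgeR adjusted p of 0.0261.

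The start regions of Tal1 and Runx1 are printed because, of the 7 members with an entry in the promoter table, Tal1 had the largest fitted log2 fold change (4.10) and Runx1 the smallest (1.22). Tal1 was not called, and without 2-month replicate 2 the changes of Ikzf1 (8.63) and Myb (8.17) were above that of Tal1 (7.69). Each window is the 250 bases before a RefSeq start site (GRCm38.p6), for Tal1 chr4:115056176-115056425 on the plus strand and for Runx1 chr16:92826075-92826324 on the minus strand. The Runx1 window reaches 75 bases into the gene as the table places it. Capitals mark exact matches, on either strand, to 6 short motifs, GATAA (GATA factors), GAGGAA (ETS factors such as PU.1), TGTGGT (RUNX), TTGNNNAA (C/EBP), CAGNTG (E-box proteins such as Tal1) and AACTG (Myb). In the Runx1 window, the stretch CAACTG holds both a match to AACTG and, on the opposite strand, a match to CAGNTG.
Tal1: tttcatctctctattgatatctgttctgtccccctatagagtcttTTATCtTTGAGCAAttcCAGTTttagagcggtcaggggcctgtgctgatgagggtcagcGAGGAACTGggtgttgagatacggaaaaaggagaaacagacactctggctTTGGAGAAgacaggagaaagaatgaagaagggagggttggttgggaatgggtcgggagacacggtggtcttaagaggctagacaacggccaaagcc
Runx1: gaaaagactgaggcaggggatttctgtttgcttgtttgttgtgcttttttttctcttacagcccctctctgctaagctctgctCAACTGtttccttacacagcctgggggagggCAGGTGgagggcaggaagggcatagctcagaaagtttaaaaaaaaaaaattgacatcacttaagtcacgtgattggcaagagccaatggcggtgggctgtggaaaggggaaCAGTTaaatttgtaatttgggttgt

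The Tal1 window had 6 matches, with GATAA and GAGGAA once each and TTGNNNAA and AACTG 2 times each. The Runx1 window had 4, from CAGNTG and AACTG. Each of these genes has another start site in the table, whose window held 0 matches for Tal1 (chr4:115057561-115057810) and 1, to GAGGAA, for Runx1 (chr16:92697330-92697579). The 7 genes had 12 windows in all, and 7 of the 12 held none of the 6 motifs. GATAA was present in 1 of 12 member windows and 22.6% of 32851 windows of all genes, GAGGAA in 2 and 23.3%, TGTGGT in 0 and 14.0%, TTGNNNAA in 3 and 33.3%, CAGNTG in 2 and 44.8%, and AACTG in 3 and 39.1%. The median GC content of the member windows was 64.6% (45.6% to 82%), compared with 52.4% over all windows. These are matches of letters and were not tested for binding.

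Of the 10 factors, 5 were called higher in aged cartilage and 0 lower, where 14.9% of all genes tested were called higher and 21.3% lower. The 5 called were Cebpa, Gfi1, Runx1, Gata2 and Lmo2, and 6 of 10 had an unadjusted p below 0.05. The median log2 fold change was 3.59 for the 10 genes and −0.02 for all 20397 genes tested. An exact two-sided permutation test over 3 against 3 libraries cannot go below 0.1, the value that each of the 10 reached.

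A call depends on the spread between libraries, so the comparison of called genes with the others is a description. The 5 genes called had standard errors of 0.30 to 0.95 and the other 5 of 1.5 to 1.86, while fitted changes were 1.22 to 3.61 and 2.83 to 4.38. In 2-month replicates 1 and 3, the called genes were at 2.13% to 29.6% of their 18-month mean and the genes not called at 0% to 2.60%. In replicate 2 the ranges were 16.3% to 65.5% and 13.8% to 41.7%. As ratios, the 18-month mean was 3.41 to 41.7 times the mean of replicates 1 and 3 for called genes. For genes not called it was 73.0 to 428.3 times that mean. Against the level of replicate 2, it was 1.53 to 6.13 times for called genes and 2.40 to 7.22 times for the others.

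**Figure D2:**
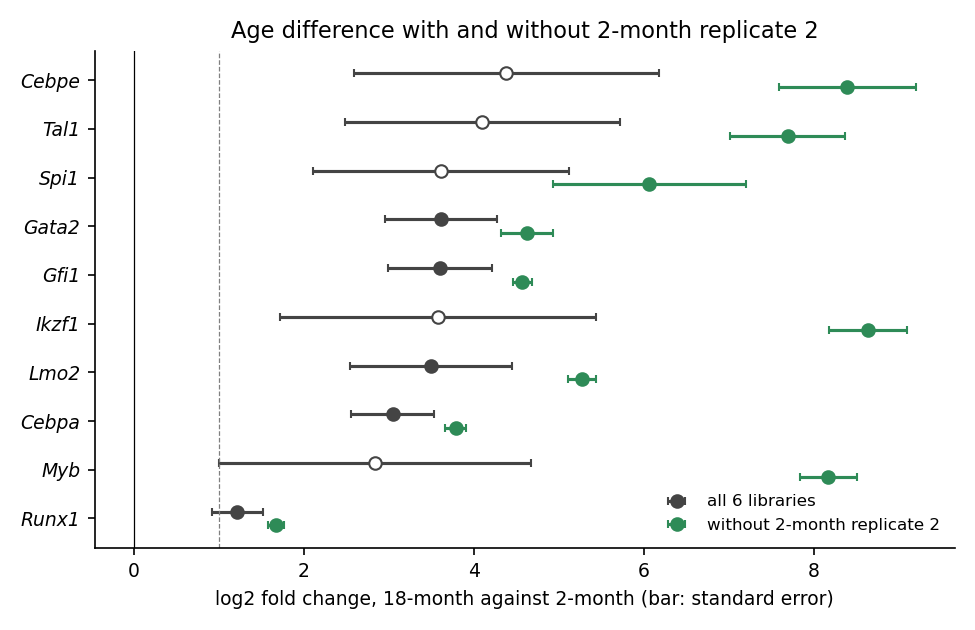
Log2 fold changes of 18-month against 2-month cartilage with their standard errors for the 10 transcription factors, from edgeR with all 6 libraries and without 2-month replicate 2. Filled points passed the test and open points did not, and all 10 points are filled when 2-month replicate 2 is left out.

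Without 2-month replicate 2, 10 of 10 factors were called higher, against 23.3% of 21489 genes tested. The log2 fold change became 8.63 ± 0.45 (SE) for Ikzf1, 8.39 ± 0.80 for Cebpe, 8.17 ± 0.33 for Myb and 7.69 ± 0.67 for Tal1. Spi1 reached 6.06 ± 1.13 and Lmo2 5.27 ± 0.16, while Runx1 moved least, to 1.67 ± 0.09. The edgeR adjusted p ranged from 3.05e-05 for Gfi1 to 0.00594 for Spi1. Without 2-month replicate 1, 5 were called, with Spi1 in place of Runx1, against 2672 of 21407 genes tested. When 2-month replicate 3 or any 18-month library was left out, 3 of 10 were called (Cebpa, Gfi1 and Gata2), with Lmo2 at an adjusted p of 0.0606 to 0.0672 and Runx1 at 0.0521 to 0.0623. Calls over all genes also fell in these fits. They were 2141 of 21356 genes called higher without 2-month replicate 3, against 3047 of 20397 with all libraries. Without 18-month replicates 1, 2 and 3 they were 2408 of 21536, 2119 of 21396 and 2095 of 21365. With all libraries, DESeq2 called 9 of 10 higher (19.6% of all genes) and limma on log2(FPKM + 0.1) 10 of 10 (20.3% of all genes).

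**Figure D3:**
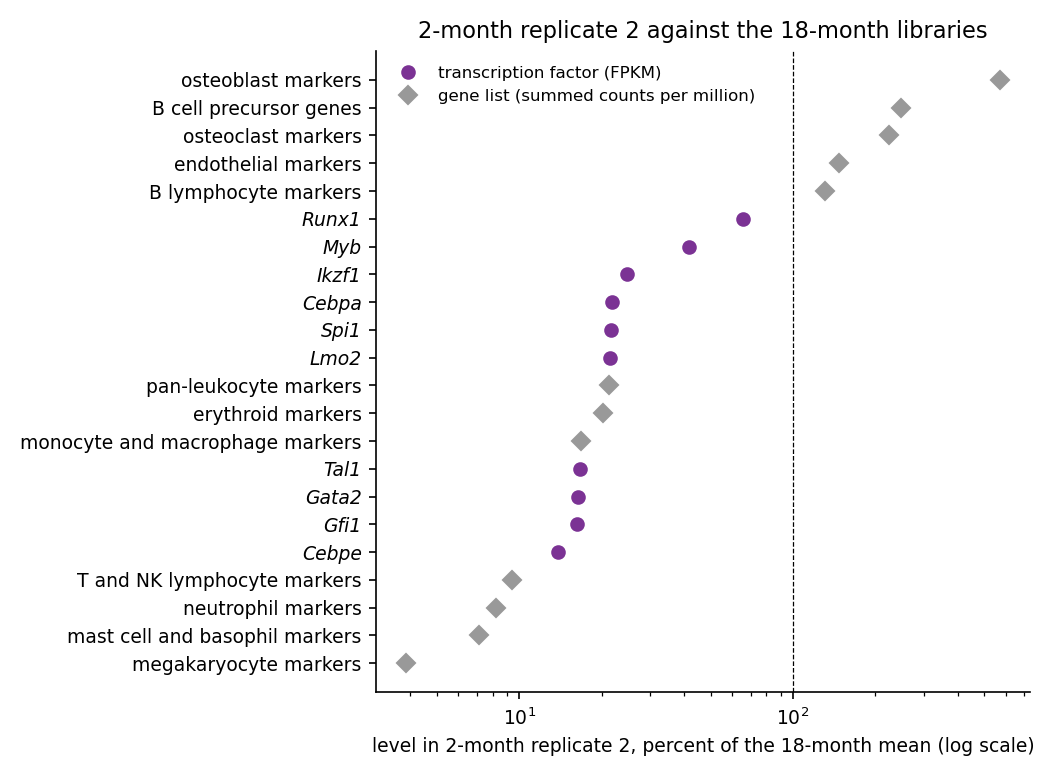
Level in 2-month replicate 2 as a percentage of the 18-month mean, for the 10 transcription factors (FPKM) and for B cell precursor genes and the marker lists other than that of chondrocytes (summed CPM), on a log axis. The 10 factors lie between 13.8% and 65.5%, neutrophil markers at 8.23%, and B cell precursor genes and B lymphocyte, endothelial, osteoblast and osteoclast markers above the dashed line at 100%.

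Markers of other cell types moved with these levels. Summed neutrophil markers, of which 0 of 7 were called (2 with an unadjusted p below 0.05, 7 by DESeq2 and 7 by limma), ranged from 5.88 to 3085 CPM at 2 months and from 35271 to 38738 at 18 months. Erythroid markers (3 of 7 called higher) were at 246.9 to 6559 and 26775 to 35457, and monocyte and macrophage markers (2 of 6) at 21.2 to 1095 and 5831 to 7780. Most of the monocyte and macrophage sum came from Lyz2. In 2-month replicate 2, Cd68 and Csf1r, which were not called, were at 75.4% and 94.4% of their 18-month mean. Lyz2, Adgre1, Ly86 and C1qa were at 13.3% to 22.1%. Megakaryocyte markers (3 of 4) were at 4.90 to 63.3 and 1240 to 1860, and mast cell and basophil markers (2 of 5) at 0 to 22.5 and 279.5 to 335.6. T and NK lymphocyte markers (3 of 5) were at 0.0623 to 10.9 and 110.5 to 124.7, and 1 of the 3 pan-leukocyte genes was called higher. Without 2-month replicate 2, edgeR called all markers of these 7 lists higher, 7 neutrophil, 7 erythroid, 6 monocyte and macrophage, 4 megakaryocyte, 5 mast cell and basophil, 5 T and NK lymphocyte and 3 pan-leukocyte genes.

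Other lists put 2-month replicate 2 above the aged libraries. B lymphocyte markers were at 1.903 to 207.1 CPM at 2 months and 147.6 to 181.0 at 18 months, endothelial markers at 10.01 to 238.1 and 158.9 to 167.8, and osteoclast markers at 69.3 to 5794 and 2372 to 2681. None of the genes in these 3 lists was called by edgeR or had an unadjusted p below 0.05, DESeq2 called 0 of them higher, and limma called 1, a B lymphocyte marker. When 2-month replicate 2 was left out, edgeR called 5 of 5 B lymphocyte, 4 of 5 endothelial and 0 of 4 osteoclast markers higher. Osteoblast markers, with 2 of 4 called lower (2 lower and 1 higher without that library), were at 3510 to 4965 CPM at 2 months and at 867.8 to 874.3 at 18 months. The part of these cell types in the levels of the 10 factors was not tested.

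The order of the factors in aged cartilage was Lmo2, Spi1, Cebpe, Ikzf1, Tal1, Cebpa, Gfi1, Myb, Runx1 and Gata2, from a mean FPKM of 74.6 ± 1.19 (SD, n = 3) to 4.61 ± 1.11. Spi1 (63.0 ± 2.88) and Cebpe (58.1 ± 9.38) overlapped between libraries, as did Runx1 (4.70 ± 0.144) and Gata2, and all other neighbors in this order were apart. The coefficient of variation over the 3 aged libraries was 1.27% to 24.0%, highest for Gata2. Makeup of the summed FPKM differed between libraries, because Runx1, Cebpa, Lmo2 and Gfi1, 4 of the 5 called genes, gave 93.2% of it in 2-month replicate 1 and 68.6% in replicate 3. In 2-month replicate 2 they gave 37.2%, and in the 18-month libraries 34.5% to 35.8%. This set was not among the planned lists and leaves out Gata2, the other called gene. Its 4 genes have the highest FPKM of the factors in 2-month replicate 1, so a large share there follows from the choice.

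Each factor was also set against Ptprc, which encodes CD45 of nucleated blood cells, as a ratio of FPKM values. Ptprc itself had 38, 5842 and 392 counts at 2 months and 35268, 25585 and 25029 at 18 months, so ratios in 2-month replicate 1 rest on few counts. For 8 of 10 factors the ratios of the ages overlapped. Spi1 per Ptprc was 2.55, 2.51 and 4.34 in young and 2.31, 2.73 and 2.90 in aged libraries, and Ikzf1 per Ptprc was 1.70, 1.99 and 0.391 and 1.52, 2.01 and 2.01. These 2 factors and Ptprc were thus high in the same libraries.

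Cebpe per Ptprc was above in all aged libraries, at 2.41, 2.36 and 2.47 against 0, 1.48 and 0.801. Runx1 per Ptprc was below in all aged libraries, at 0.165, 0.204 and 0.225 against 41.8, 0.565 and 3.62. Lmo2 and Cebpa per Ptprc reached 47.6 and 46.6 in 2-month replicate 1, against 2.65 to 3.45 and 0.804 to 1.13 in aged cartilage, but overlapped through 2-month replicate 2 (2.95 and 0.945). None of 18 ratios could pass, since the exact two-sided permutation test gave 0.1 at the least, or 0.257 after Benjamini-Hochberg adjustment over the 18. With Coro1a, another leukocyte gene, in place of Ptprc, 6 factors did not overlap, all 6 lower in aged cartilage (Spi1, Cebpa, Gfi1, Runx1, Tal1 and Lmo2). Coro1a itself had an FPKM of 0.327, 41.2 and 1.51 at 2 months and 294.0, 266.9 and 269.8 at 18 months. The ratio therefore falls for any gene that rose less than Coro1a. With Ptprc and without 2-month replicate 2, 6 factors did not overlap, Cebpe higher and Cebpa, Gfi1, Runx1, Gata2 and Lmo2 lower in aged cartilage. Without 18-month replicate 1, 4 did not, with Cebpe, Ikzf1 and Tal1 higher and Runx1 lower. The share of all genes whose ratios did not overlap was not computed.

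**Figure D4:**
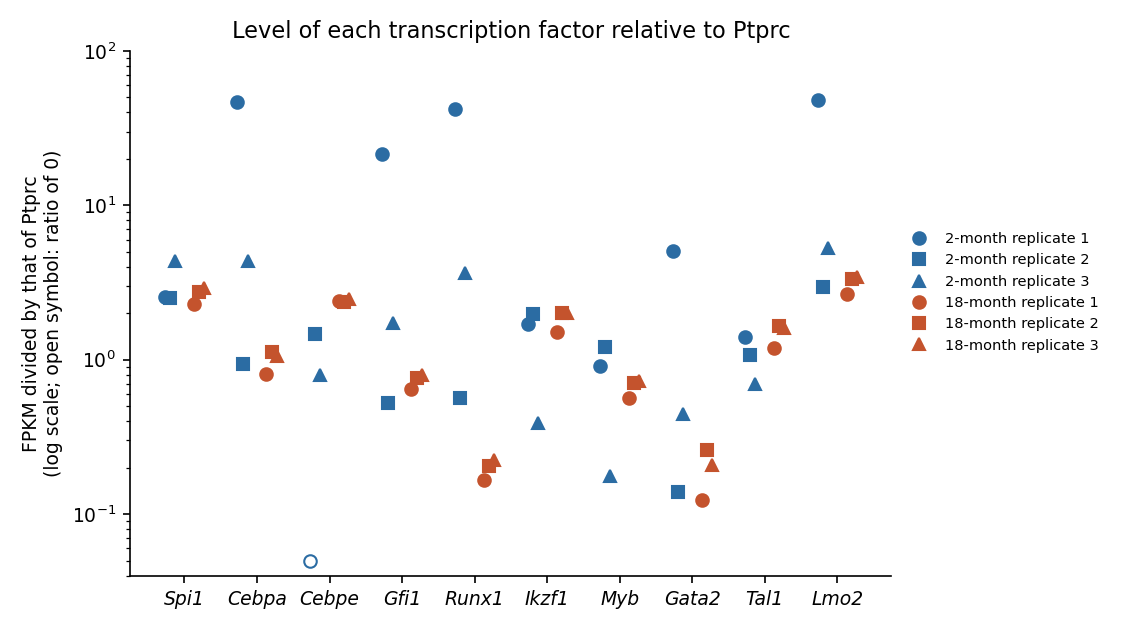
Ratio of each factor's FPKM to that of Ptprc on a log axis, with 1 point per library. The ratios of the ages overlap for 8 of 10 factors, Runx1 is lower and Cebpe higher in all aged libraries, and the open symbol marks the Cebpe ratio of 0 in 2-month replicate 1, placed at the foot of the axis.

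Gata2, Tal1, Lmo2 and Runx1 are also used by endothelial cells, and they were set against Pecam1 and Cdh5, which encode junction proteins of those cells. Pecam1 had an FPKM of 0.383, 11.5 and 2.04 at 2 months and 11.3, 11.2 and 11.9 at 18 months, and Cdh5 had 0.594, 12.9 and 1.44 against 6.02, 4.84 and 5.68. 2-month replicate 2 lay within the aged range for Pecam1 and above it for Cdh5. Tal1 per Pecam1 was 0.122, 0.507 and 0.129 in young and 3.01, 3.26 and 2.89 in aged cartilage, and Lmo2 per Pecam1 was 4.14, 1.39 and 0.975 and 6.71, 6.59 and 6.20. Per Cdh5, Tal1, Lmo2 and Gata2 were above in all aged libraries, with Gata2 at 0.281, 0.0583 and 0.117 against 0.591, 1.19 and 0.791. Gata2 per Pecam1 overlapped between the ages, at 0.437, 0.0655 and 0.0827 against 0.314, 0.514 and 0.376. Runx1 overlapped against both genes.

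Over the 6 libraries the factors were closely alike, with Pearson's r of log2 CPM between 0.910 (Spi1 and Gfi1) and 0.999 (Cebpa and Gfi1) for the 45 pairs and a median of 0.976. The libraries differ in age and tissue makeup together, for all genes alike, so these values are a description. Among 13890 tested genes whose FPKM averaged 1 or more, the nearest in pattern to Spi1 were Rnase6 and Sele, to Cebpa Ipmk and Kbtbd6, to Cebpe Hcls1 and Kntc1, and to Gfi1 Glipr2 and Mcm2. Runx1 was nearest to Igkv4-79 and Elmo1, Ikzf1 to Epb42 and Sp110, Myb to Isg15 and Sowaha, Gata2 to Abcg4 and Gm21596, Tal1 to Napsa and Ngp, and Lmo2 to Serpinb1a and Alox5. All 20 had r above 0.99, as did 207 to 880 genes for each factor.

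Among 23 relatives from the same gene families, 22 were tested, 4 were called higher and 4 lower, with a median log2 fold change of 0.64. Of these, 8 were called higher and 4 lower without 2-month replicate 2, and without 2-month replicate 3 or any 18-month library 2 were called higher. Over all genes tested, 14.9% were called higher and 21.3% lower, and 23.3% higher without 2-month replicate 2. Leaving out any other library reduced the genes called higher over all genes from 3047 to between 2095 and 2672. The same values apply to the gene lists that follow. Lyl1, the closest relative of Tal1, rose by 3.90 ± 1.24 (SE, edgeR adjusted p = 0.0422), from an FPKM of 0.247, 6.501 and 0.489 to 37.8, 36.3 and 35.2. Mybl2, the Myb relative of dividing cells, rose by 3.35 ± 0.68 (edgeR adjusted p = 0.00978), and Gfi1b, the erythroid and megakaryocyte relative of Gfi1, by 4.98 ± 1.64 (edgeR adjusted p = 0.0470). The log2 fold change was 6.48 for Lyl1 and 8.74 for Gfi1b without 2-month replicate 2, and both lost their call in 6 of 15 alternatives, among them those without 2-month replicate 3 or any 18-month library. Lmo3 was listed at 0 in 5 of 6 libraries and was not tested.

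The Runx family changed in both directions. Runx2, the master regulator of osteoblasts and of chondrocyte hypertrophy, had an FPKM of 19.2, 22.7 and 19.2 at 2 months and 5.82, 5.23 and 5.41 at 18 months. Its log2 fold change was −1.97 ± 0.10 (SE, edgeR adjusted p = 0.000706). Runx3, which acts with Runx2 in cartilage and also in T cells, had 11.3, 8.60 and 13.6 at 2 months and 3.00, 2.91 and 2.84 at 18 months, with a log2 fold change of −2.03 ± 0.22 (edgeR adjusted p = 0.00175). Runx2 and Runx3 were called lower in all 15 alternatives. Runx1 was called in the opposite direction but lost its call in 6 of 15 alternatives, which were TPM (log2 fold change 0.93, limma adjusted p = 0.0691) and leaving out any library except 2-month replicate 2 (edgeR adjusted p = 0.0521 to 0.0623).

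**Figure D5:**
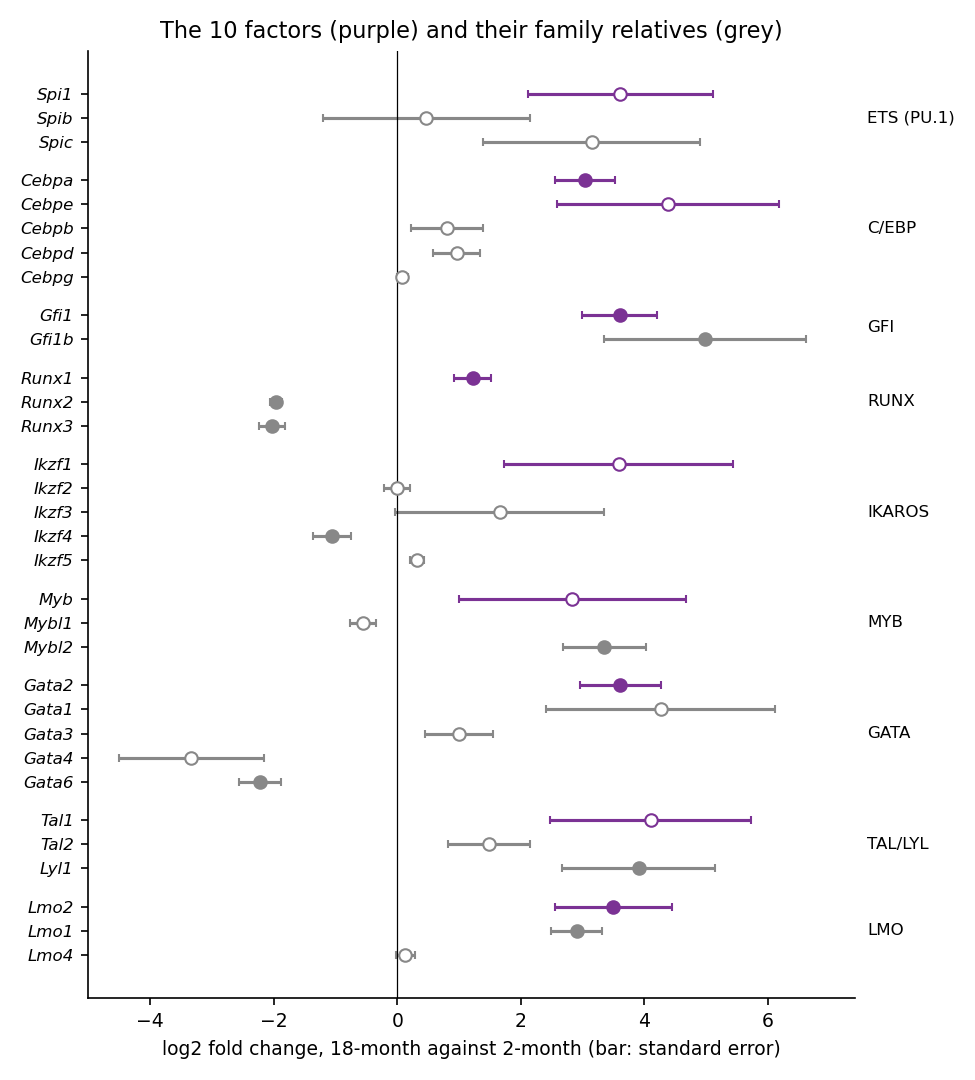
Log2 fold change of 18-month against 2-month cartilage (edgeR, all 6 libraries) with standard errors, for the 10 factors and their tested family relatives, grouped by family. Filled points passed the test and open points did not, and in the Runx family Runx1 is at 1.22, Runx2 at −1.97 and Runx3 at −2.03.

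Partner proteins, which bind these factors or work in the same complexes, had 1 of 14 called higher and 0 lower, with a median of 0.16. The gene called was Zfpm1, which encodes the GATA cofactor FOG-1 (log2 fold change 3.19 ± 0.93, SE, edgeR adjusted p = 0.0330), with an FPKM of 0.581, 6.05 and 0.768 at 2 months and 23.7, 22.3 and 22.5 at 18 months. Without 2-month replicate 2, 4 of 14 were called higher, and without any other library 0 were, since Zfpm1 then had an adjusted p of 0.0553 to 0.0833. Of 14 other blood transcription factors, 2 were called higher and 3 lower, with a median log2 fold change of 0.27. These counts were near the shares over all genes tested, 14.9% higher and 21.3% lower. Without 2-month replicate 2, 6 of the 14 were called higher and 3 lower, and without 2-month replicate 1 or 18-month replicate 1 or 3, 1 was called higher. Bcl11a lost its call in those fits and without 18-month replicate 2. Fli1 (2.29 ± 0.31, edgeR adjusted p = 0.00291) and Bcl11a (2.61 ± 0.66, edgeR adjusted p = 0.0211) rose. Erg, an ETS factor that is also expressed in articular chondrocytes, and Zbtb16 fell, with log2 fold changes of −1.18 ± 0.28 (edgeR adjusted p = 0.0162) and −2.82 ± 0.44 (edgeR adjusted p = 0.00453). Hoxa9, the remaining gene called lower, had a log2 fold change of −2.19 ± 0.13 (edgeR adjusted p = 0.000749).

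Receptors of stem and progenitor cells had 5 of 13 called higher and 1 lower, with a median log2 fold change of 3.56, and 12 of 13 were called higher without 2-month replicate 2. Leaving out any other library left 1 to 3 called higher, and Kit lost its call in each of those fits. Kit, the stem cell factor receptor, had an FPKM of 0.0841, 1.46 and 0.156 at 2 months and 5.67, 7.23 and 7.04 at 18 months (3.53 ± 1.09, SE, edgeR adjusted p = 0.0385). Csf2ra, a subunit of the GM-CSF receptor, rose by 2.14 ± 0.28 (edgeR adjusted p = 0.00266). Procr, a stem cell and endothelial protein C receptor, was lower at 18 months, with a log2 fold change of −2.07 ± 0.49 (edgeR adjusted p = 0.0160), a call lost without 2-month replicate 3 or 18-month replicate 2 or 3 (0.0531 to 0.0591).

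Genes that these factors are known to act on had large fitted changes and few calls. Primary granule genes (Mpo, Elane, Prtn3, Ctsg and Ms4a3), which Spi1, Cebpa and Myb act on, had a median log2 fold change of 5.01 with 0 of 5 called by edgeR and 0 at an unadjusted p below 0.05, against 2 by DESeq2 and 5 by limma. Their summed level was 0.496, 388.8 and 1.58 CPM at 2 months and 3647 to 3913 at 18 months. Secondary granule genes, which Cebpe acts on (Ltf, Camp, Ngp, Lcn2, Mmp8 and Cd177), had a median of 4.96 with 0 of 6 called, 1 of them at an unadjusted p below 0.05, against 6 by DESeq2 and 6 by limma. Without 2-month replicate 2, edgeR called all of these genes higher, 5 of 5 primary and 6 of 6 secondary granule genes. Ltf, Camp and Ngp are also among the neutrophil markers given above.

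Mast cell and basophil genes (Cpa3, Ms4a2, Fcer1a, Hdc and Gata1), in which Gata2 acts, had 2 of 5 called higher and 5 of 5 without 2-month replicate 2. It was 1 of 5 without 2-month replicate 3 or any 18-month library, where Cpa3 lost its call. Cpa3, Ms4a2 and Fcer1a are also among the mast cell and basophil markers above, and Cpa3 and Fcer1a are the genes called in both lists. Cpa3, a mast cell protease, was listed at 0, 1.84 and 0.285 FPKM at 2 months and 16.1, 25.1 and 21.4 at 18 months (edgeR adjusted p = 0.0360). Fcer1a, a chain of the IgE receptor, was at 0, 0.399 and 0.0616 against 16.0, 22.3 and 18.6 (edgeR adjusted p = 0.00584). B cell precursor genes (Dntt, Vpreb1, Igll1, Rag1 and Rag2) went the other way in 2-month replicate 2, which held 102.1 CPM of them against 38.2 to 45.2 in aged and 0.372 and 1.74 in the other young libraries. They had 0 of 5 called by edgeR, DESeq2 and limma and 0 at an unadjusted p below 0.05, and 5 of 5 were called higher by edgeR without that library.

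Several of the 10 genes overlap a gene on the opposite strand. These were Gm45091 at Cebpa, A430072P03Rik at Gfi1, Gm26626 at Runx1, Gm12000 and Gm11999 at Ikzf1, Gm26577 at Myb and 4931422A03Rik at Lmo2. They held at most 175 counts in any library, and whether the counting used strand is not given in the sources used here.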

How the data were processed

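The authors deposited raw whole-number read counts for each gene in each library, and FPKM values, in which transcript length and library size are divided out. The submitters' processing notes name cutadapt 1.9, HISAT2 2.0.4, UMI-tools and StringTie 1.3.4d, with DESeq2 and edgeR. The genome build, the annotation and the use of strand or molecular identifiers in counting are not given in the sources used here. Positions of 9 of the 10 genes were identical in GENCODE M21, so they are on GRCm38, and the end of Spi1 is as the table gives it. 0 columns of library values were left out. Columns of the authors' own comparisons were not used.

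Groups came from the sample titles. Counts (48171507 to 59085179 per library) were scaled by TMM after filterByExpr and tested with edgeR 4.0.16 (glmQLFit, glmQLFTest, no block) in R 4.3.3, with Benjamini-Hochberg adjustment over 20397 genes. A gene was called at an adjusted p below 0.05 and a log2 fold change above 1 or below -1. Standard errors were the fold change on the log2 scale over the root of the F statistic. Ages were said not to overlap where every library of one age was above every library of the other. Counting floors were 3 counts. Likeness used log2 CPM with a prior count of 2.

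Alternatives were DESeq2 1.42.0, median-of-ratios size factors, total counts alone, TMM without the 100 most abundant genes, no filter, limma 3.58.1 with trend on log2(FPKM + 0.1) or log2(FPKM + 1) for a mean FPKM of at least 0.1, FPKM rescaled to TPM, a replicate block and leaving out each library. The scripts were tested on simulated data. Figures were drawn with matplotlib 3.10.9 in Python 3.11.15.

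The members and all lists were chosen with earlier results of these data known, so no pattern in them is independent support. Of each related list, the 3 most abundant genes called higher and the 2 most abundant called lower were named, as were the 10 members, Ptprc, Pecam1, Cdh5, Xist and the 2 most alike genes of each member. Coro1a, Matn1, Lmo3, Hoxa9, the single monocyte and macrophage markers and the overlapping genes were named after their values were seen. Some results that the rule and lists cover are not reported here.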

Additional observations from a re-analysis of the deposited data

How the results depend on the processing

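The 150 values of the log2 fold change (10 factors under 15 alternatives) were all above 0, 116 on the same side of the threshold as in the report, 24 newly past it and 10 no longer past it. The count of factors called higher was 5, 9 with DESeq2, 10 with limma on log2(FPKM + 0.1), 10 with a pseudocount of 1 and 8 with TPM, and 3 to 10 when 1 library was left out. Over all genes tested, 14.9% were called higher, 19.6% with DESeq2 and 20.3% with limma on log2(FPKM + 0.1). They were 3041 of 21539 genes with a pseudocount of 1, 3109 of 21539 with TPM, and 2095 to 5007 genes when 1 library was left out. The highest count came without 2-month replicate 2 and the lowest without 2-month replicate 3 or any 18-month library. The cause was not tested. Genes of the related lists called higher numbered 14, against 36 with DESeq2, 9 with no filter, 43 with limma on log2(FPKM + 0.1), 43 with a pseudocount of 1, 41 with TPM and 5 to 54 with 1 library left out (54 without 2-month replicate 2, 8 without 2-month replicate 3 and 6, 6 and 5 without 18-month replicates 1, 2 and 3). Those called lower numbered 8, against 5 with a pseudocount of 1, 11 with TPM, 9 with DESeq2 and 5 to 8 with 1 library left out, lowest without 18-month replicate 2 or 3. Factors whose ratio to Ptprc did not overlap numbered 2, against 6 with Coro1a and 2 to 6 with 1 library left out. The 16 related genes taken by the naming rule kept their direction in all 240 values, and 7 were called in every alternative.

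Over all genes, 3047 were called higher and 4354 lower, with 5007 higher without 2-month replicate 2 and 2217 lower with a pseudocount of 1, so that 41.2% of calls were higher with all libraries, 52.2% without that library, 57.8% with that pseudocount, 34.8% with TPM (5819 lower) and 35.6% to 38.0% without 2-month replicate 3 or any 18-month library. Rescaling to TPM put the median change over all genes at −0.33 on the log2 scale, and the factors stayed above it. With the replicate number as a block, 5 factors were called higher and 0 lower, with 15 related genes higher and 7 lower, and 2523 genes higher and 3509 lower over all genes. Deviations of same-numbered libraries correlated at 0.0337, 0.0442 and −0.0241, and those of differently numbered libraries at −0.0548 to 0.0531. With 3 libraries per age, these values cannot show whether the numbers pair the samples.

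Only 3 libraries per age, of unknown relation to animals, limit the precision, and depth limits the genes near 0 counts in 2-month replicates 1 and 3, for which the fold change depends on few reads.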
